A study of Oryza sativa with 6 samples.

Results

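Heat shock proteins and the heat stress transcription factors that switch on their genes were followed in mesocotyls of P25, an indica cultivar of rice. The loci were chosen by product name: a locus belonged when the deposited description, up to its bracketed species or alternative name, held "heat shock", "heat stress transcription factor" or "chaperone protein ClpB". Of 35500 loci, 49 carried such a name, and 39 of these reached 1 FPKM in at least 1 library. FPKM is a fragment count scaled to transcript length and library size. The 39 loci comprised 9 small heat shock proteins, 12 of the 70 kDa family, 3 of the 90 kDa family, 4 ClpB disaggregases, 10 heat stress factors and 1 locus named only heat shock protein-like. Just inside the floor lay heat stress factor B-4d (ZS03g0280100), at most 1.49 FPKM, and factor B-2b (ZS08g0633100), at most 2.49. Just outside lay a heat shock cognate 70 kDa locus (ZS03g0506300), at most 0.681, and the 18.0 kDa class II small heat shock protein (ZS01g0083200), at most 0.675.

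The mesocotyl is the stem-like segment that lengthens in darkness and pushes the rice shoot through the soil, and the series title names its inhibition by light as the subject. There were 6 RNA samples of P25 mesocotyls, each sequenced as 1 library: seedlings kept in darkness for 1, 3 or 5 days after sowing, and seedlings kept in darkness for 5 days and then given 30 min, 60 min or 24 h of light. With 1 library in each group no test was possible, and the words higher and lower refer to single libraries. No source used here gives the growth temperature, the hour of sampling or the number of seedlings per sample.

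Chaperones of these families work as a relay. Small heat shock proteins hold unfolding proteins without using ATP, 70 kDa chaperones bind and release them in an ATP cycle driven by DnaJ partners, 90 kDa chaperones finish the folding of many receptors and kinases, and ClpB (HSP101) pulls proteins out of aggregates. Heat stress factors bind the promoters of these genes: class A members act as activators, class B members lack the activating motif and often repress, and class C members are plant factors of less settled function. Several members serve in unstressed cells, among them the cognate 70 kDa proteins and the organelle forms that help proteins into plastids and mitochondria.

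Differences below are log2((FPKM + 1)/(FPKM + 1)), and a locus is called higher or lower at 1 or more on that scale, which is 2-fold; this is a rule of size. Library sums ran from 336212 to 359808 FPKM, and 23787 loci reached 1 FPKM somewhere. The unnamed locus ZS07g0251700 took up 14.9% of the FPKM of the 3-day dark library. Summed leaf genes split the libraries: 14 antenna, photosystem, oxygen-evolving and Rubisco small-subunit loci summed to 325 FPKM in the 5-day dark library and 1025 at 60 min of light, against 25.8 to 68.2 in the other 4. Single loci weighed heavily, with ZS12g0195100 at 125 FPKM at 5 days and ZS01g0462400 at 327 at 60 min. Not all followed: the Rubisco locus ZS02g0059700 stood at 8.15, 4.49 and 2.22 in darkness and at 1.07, 0.684 and 0.813 in light. Of these 14 leaf loci, 6 were listed at 0 in the 3-day library and none at 60 min. The 6 shoot meristem (knotted-like) loci summed to between 59.6 and 92.7 FPKM, and the 4 loci with alpha-amylase in their names, 2 of them inhibitors, to between 32.3 and 95.6. Single knotted-like loci moved in opposite directions. From 5-day darkness to 60 min ZS01g0217500 went from 28.7 to 5.22 FPKM and ZS03g0030200 from 4.83 to 16.1. Their sum thus does not show that meristem content was even. No transcript that defines the mesocotyl itself was used, so the label was checked against other tissues only. In whole tissue, fewer cells of a type and less RNA per cell cannot be told apart.

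Together the 39 loci held between 0.269% and 0.437% of all FPKM, with the highest share at 5 days of darkness. The lowest, at 3 days, was 0.316% without ZS07g0251700 in the total, where the other 5 libraries held 0.311% to 0.440%. Their spread over libraries was a little wider than usual: the median distance between the highest and lowest library was 1.67 on the log2(FPKM + 1) scale, against 1.33 over all 23787 loci. Only 7 members stayed within 2-fold over all 6 libraries, while 29 passed 2-fold in at least 1 of 5 comparisons (74.4%, against 60.9% of all loci). Members and all loci were not matched for level, and adding 1 FPKM narrows the range of low loci. The highest value fell in the 5-day dark library for 14 members (35.9%), against 23.1% of all loci. The single lowest value fell at 60 min of light for 11 members (28.2%), against 8.81% of all loci, and at 1 day of darkness for another 11, against 25.6% of all loci.

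**Figure D1:**
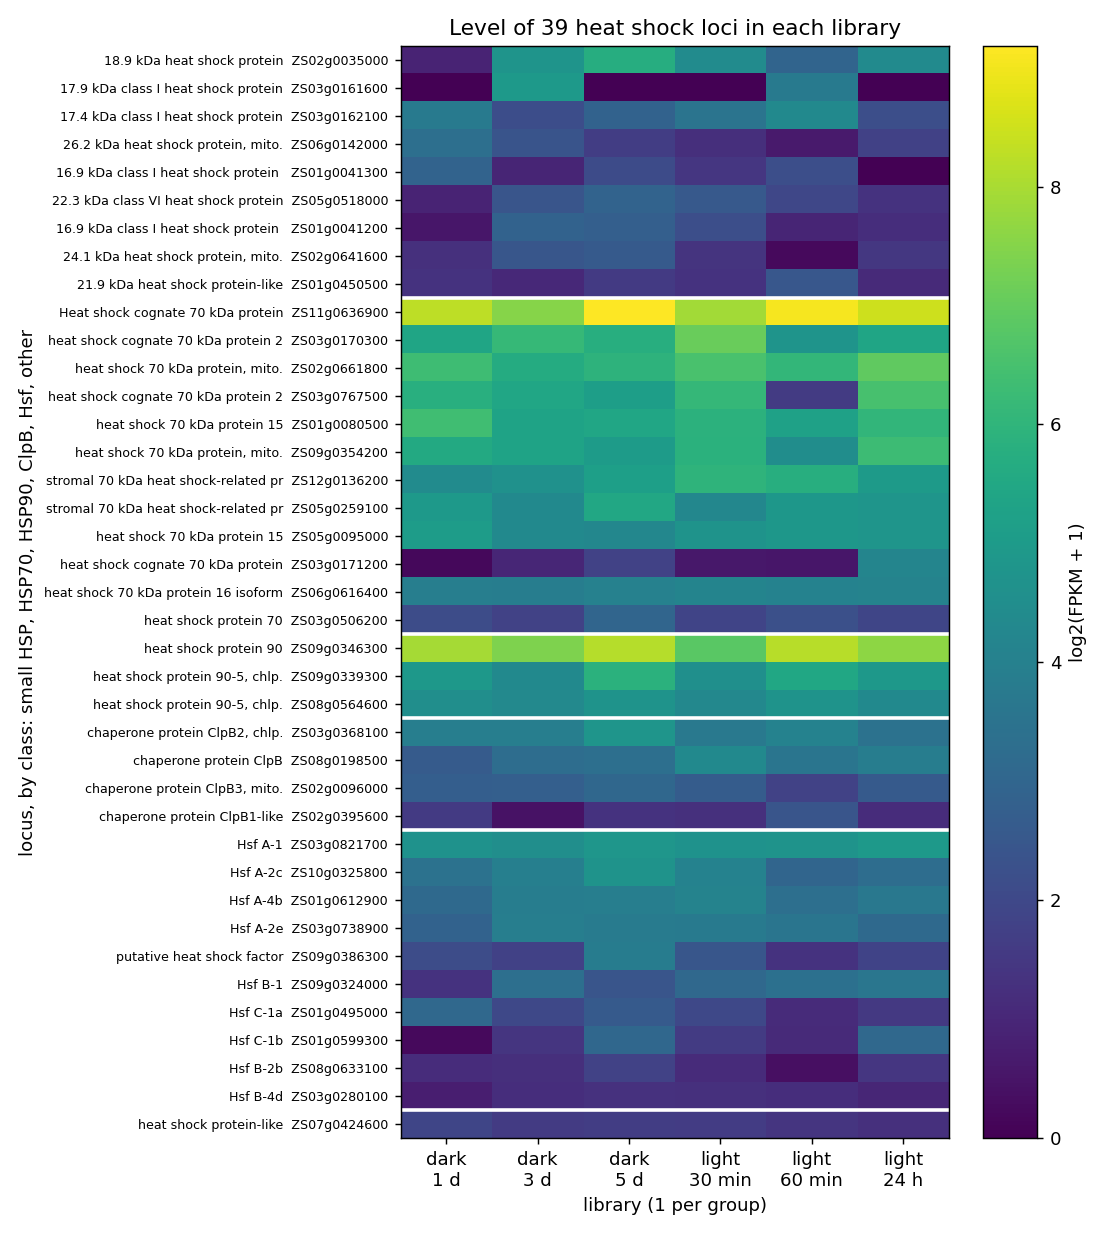
Level of each of the 39 loci, as log2(FPKM + 1), in each of the 6 libraries (columns, 1 library per group), with loci ordered by class and then by their highest level. One 70 kDa locus (up to 580 FPKM) and one 90 kDa locus (up to 291 FPKM) stand far above the rest, and 7 of the 39 loci stay within 2-fold over all libraries.

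The 90 kDa family had its lowest summed level, 154 FPKM, at 30 min of light, against 207 to 369 in the other libraries. The most abundant member, named heat shock protein 90 (ZS09g0346300, with ZS09g0346000 merged into it), stood at 245, 169 and 286 FPKM at 1, 3 and 5 days of darkness and at 112, 291 and 198 FPKM after 30 min, 60 min and 24 h of light. Its 30-min value was the lowest of the 6, and its 60-min value was level with the 5-day dark value. HSP90-5, which in Arabidopsis is the plastid form needed for chloroplast development, had 2 loci. ZS09g0339300 stood at 28.6, 19.3 and 57.3 FPKM in darkness and at 23, 43.4 and 28.6 in light. ZS08g0564600 stood at 22.1, 19.1 and 25.4 in darkness and at 18.7, 25.3 and 19.6 in light, within 2-fold throughout. Against the 5-day dark library the 30-min differences were -1.35, -1.28 and -0.42. Against the 3-day dark library they were -0.59, 0.24 and -0.02, so 2 loci lay below both, ZS08g0564600 by little, and none by 2-fold. The high libraries of ZS09g0339300, 5 days of darkness and 60 min of light, were also the 2 with the high leaf marker sums given above. Whether leaf tissue has a part in this was not tested.

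One cognate locus carried much of the 70 kDa family. ZS11g0636900, a heat shock cognate 70 kDa protein, stood at 309, 181 and 580 FPKM at 1, 3 and 5 days of darkness and at 241, 529 and 356 FPKM after 30 min, 60 min and 24 h of light. It was highest at 5 days of darkness and at 60 min of light, as the leaf marker sums were. The locus made up between 31.0% and 65.1% of the FPKM of the 12 loci. Their sum was steadier, at 714, 501 and 924 FPKM in darkness and 778, 812 and 873 in light.

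The other abundant cognate loci ran the opposite way after light. ZS03g0170300, heat shock cognate 70 kDa protein 2, stood at 41.7, 69.6 and 52.7 FPKM in darkness and at 136, 26 and 41.2 in light, so that it was highest at 30 min and lowest at 60 min. A second locus of the same name, ZS03g0767500, stood at 54.3, 42.2 and 34.4 FPKM in darkness and at 67.5, 2.05 and 90.6 in light. Its 60-min value lay at least 2-fold below all 3 dark libraries, and its 24-h value was its highest. The pair summed to 204 FPKM at 30 min, 28.1 at 60 min and 132 at 24 h. Another cognate locus, ZS03g0171200, stood at 0.140, 0.999 and 2.55 FPKM in darkness and at 0.519, 0.475 and 17.2 in light, so that the 24-h value was the highest and the 5-day dark value the next. Of all 39 members it alone lay at least 2-fold above the range of the 3 dark libraries at 24 h, where 4.63% of all loci did. At 30 min no member lay 2-fold outside the dark range, where 4.57% of all loci lay above it and 0.765% below. At 60 min none lay above it (5.53% of all loci), and at 24 h none below (1.14%). Cytosolic 70 kDa genes are close relatives, so reads may have been split between these loci and the values of each are uncertain. The 4 cognate loci summed to 405, 294 and 670 FPKM in darkness and 445, 558 and 505 in light.

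Mitochondrial and plastid 70 kDa loci had profiles of their own. The mitochondrial form, which pulls precursor proteins into the matrix and folds them there, had 2 loci. ZS02g0661800 stood at 80.2, 49.4 and 59.6 FPKM in darkness and at 92.4, 66.5 and 122 in light. ZS09g0354200 stood at 47.2, 39.1 and 31.5 in darkness and at 56.8, 21.9 and 76.8 in light. Both were highest at 24 h of light, at differences of 1.02 and 1.26 against the 5-day and 1.29 and 0.96 against the 3-day dark library. The stromal form, which acts in protein import into plastids, also had 2 loci, and these parted at 30 min. ZS12g0136200 stood at 20.6, 24.1 and 35.3 FPKM in darkness and at 62.4, 53.2 and 30.8 in light. ZS05g0259100 stood at 30.1, 19.5 and 45.0 in darkness and at 18.1, 28.4 and 26.8 in light. Their sum was 80.4 FPKM at 5 days of darkness, 80.4 at 30 min and 81.6 at 60 min, and how reads shared by the pair were divided is not known.

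Of the remaining 70 kDa loci, HSP70-15, in Arabidopsis a member of the Hsp110 subgroup that resets other 70 kDa chaperones, had 2 loci. ZS01g0080500 stood at 81.3, 39.6 and 42.7 FPKM in darkness and at 58.5, 37.4 and 65.7 in light. Its 1-day value was the highest. ZS05g0095000 ranged from 17.9 to 32.7 FPKM. ZS06g0616400, named heat shock 70 kDa protein 16, was the steadiest member of all, between 13.7 and 16.6 FPKM. A minor locus, ZS03g0506200, stood at 3.38, 2.47 and 6.88 in darkness and at 2.65, 3.78 and 2.74 in light, with its peak at 5 days of darkness.

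**Figure D2:**
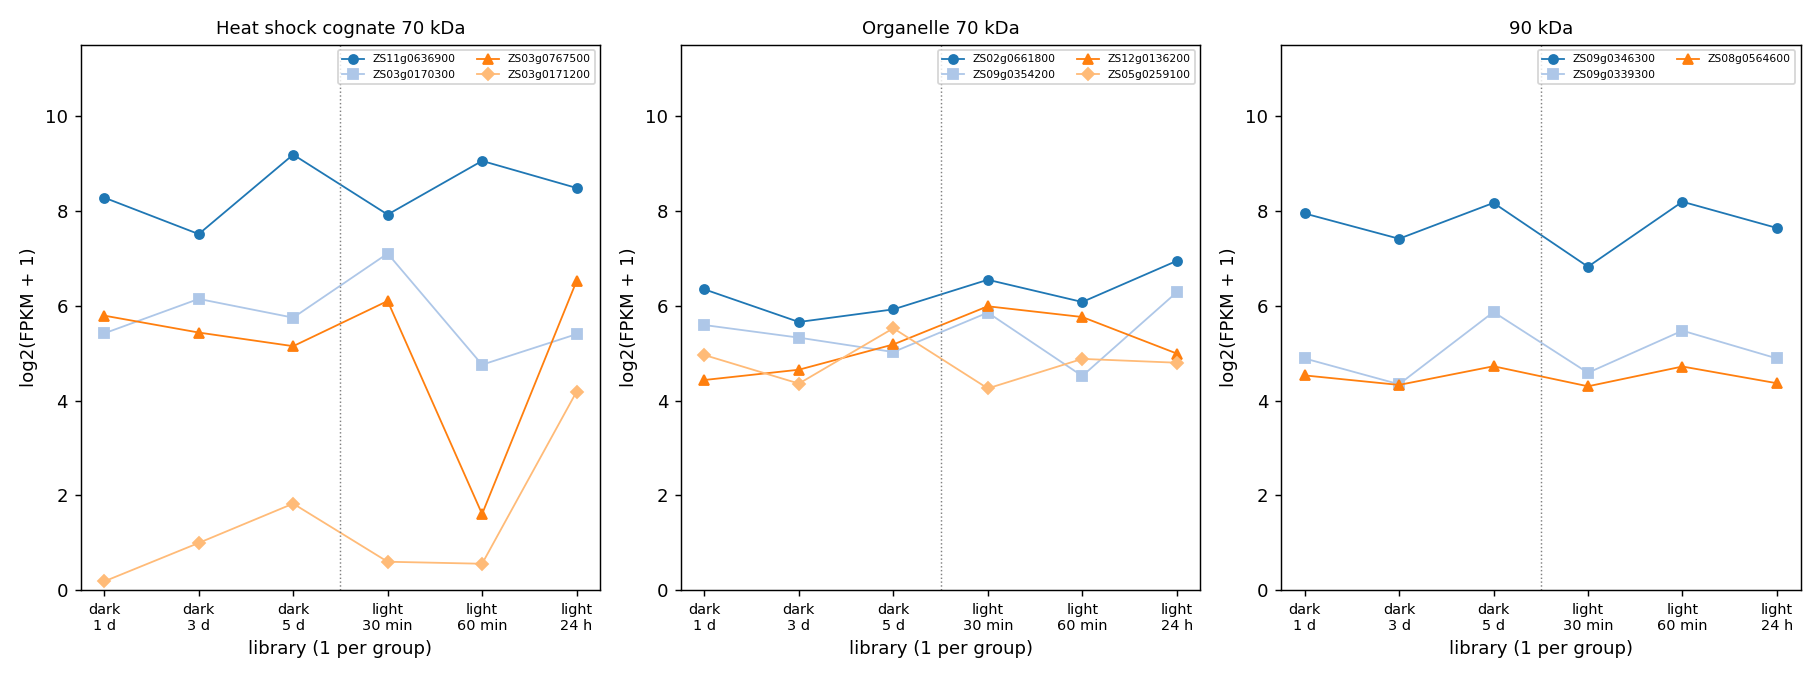
Level, as log2(FPKM + 1), of cognate 70 kDa loci, organelle 70 kDa loci and 90 kDa loci in the 6 libraries (1 per group; lines join values of a locus as a guide, and the dotted line parts dark from light). ZS11g0636900 and ZS09g0346300 are high at 5 days of darkness and 60 min of light, whereas ZS03g0170300 and ZS03g0767500 have their lowest values at 60 min, at 26 and 2.05 FPKM.

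Small heat shock proteins were the most variable class, and none of the 9 stayed within 2-fold over the 6 libraries. The same held for the 4 ClpB loci, over narrower ranges. Several of the small proteins fell below 1 FPKM in some library, so they passed the floor through their high libraries. The most abundant, the 18.9 kDa protein (ZS02g0035000), stood at 0.882, 26.1 and 52.3 FPKM at 1, 3 and 5 days of darkness and at 20.7, 6.77 and 20.2 FPKM after 30 min, 60 min and 24 h of light. It was higher in each later dark library, and was lower in each light library than at 5 days of darkness. The difference from 1 to 5 days was 4.82, and the 30-min, 60-min and 24-h differences from the 5-day library were -1.30, -2.78 and -1.33. Against the 3-day library they were -0.32, -1.80 and -0.36, so only the 60-min value lay 2-fold below both.

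A further 3 loci were also lowest in darkness at 1 day, and each of their light values lay below the 5-day value. Their order within the light libraries differed. ZS01g0041200, a 16.9 kDa class I (cytosolic) protein, stood at 0.458, 6.45 and 5.88 FPKM in darkness and at 3.63, 0.939 and 1.32 in light. The 22.3 kDa class VI protein (ZS05g0518000) stood at 0.893, 4.29 and 6.51 in darkness and at 4.87, 2.83 and 1.54 in light. The mitochondrial 24.1 kDa protein (ZS02g0641600) stood at 1.42, 4.53 and 5.11 in darkness and at 1.61, 0.167 and 1.82 in light. All 3 were highest at 3 or 5 days of darkness. At 60 min the 24.1 kDa protein lay at least 2-fold below all 3 dark libraries, as did the other mitochondrial member, of 26.2 kDa (ZS06g0142000), which stood at 9.14, 4.24 and 2.19 in darkness and at 1.35, 0.594 and 2.40 in light. With ZS03g0767500 they made 3 members (7.69%) below the dark range at 60 min, against 0.895% of all loci. The 2 mitochondrial proteins summed to 10.6, 8.77 and 7.30 FPKM in darkness and to 2.95, 0.761 and 4.22 in light.

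The remaining small proteins did not follow. The 17.4 kDa class I protein (ZS03g0162100, with ZS03g0162300 merged) stood at 12.4, 3.45 and 6.38 FPKM in darkness and at 10.5, 19.7 and 3.57 in light, with its peak at 60 min. The second 16.9 kDa locus, ZS01g0041300, stood at 6.64, 0.923 and 3.29 in darkness and at 1.74 and 3.58 at 30 and 60 min, and was listed at 0 at 24 h. The 17.9 kDa class I locus ZS03g0161600 was listed at 0 in 4 libraries, and at 30.2 FPKM at 3 days of darkness and 12.7 at 60 min of light. A 0 in such a table can be a failed estimate, so no fold is given against one. Class I genes resemble one another closely, and reads shared between them leave the value of each uncertain. Summed over the 4 class I loci the level was 19.4, 41.0 and 15.5 FPKM in darkness and 15.9, 36.9 and 4.89 in light. Of these sums, 30.2 FPKM at 3 days and 12.7 at 60 min came from ZS03g0161600, whose listed 0s counted as 0. The high 3-day sum thus rests on that locus. The 21.9 kDa-like locus (ZS01g0450500) ranged from 1.09 to 4.66 FPKM and was highest at 60 min. A further 6 small heat shock protein loci, both chloroplast ones among them, stayed under 1 FPKM in every library.

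ClpB disaggregases were expressed at low to moderate levels. The chloroplast form ClpB2 (ZS03g0368100) stood at 14.1, 14.3 and 26.9 FPKM in darkness and at 12.2, 15.7 and 9.98 in light. ZS08g0198500, named ClpB with no compartment, stood at 5.25, 8.77 and 9.23 in darkness and at 19.3, 10.9 and 14 in light, with its peak at 30 min. The mitochondrial form ClpB3 (ZS02g0096000) stood at 5.73, 5.95 and 7.37 in darkness and at 5.39, 2.54 and 5.04 in light. ClpB3 was thus lowest at 60 min, where the mitochondrial small proteins were also lowest. ClpB1-like (ZS02g0395600) stood at 1.93, 0.358 and 1.54 in darkness and at 1.42, 4.37 and 1.22 in light. Only its 60-min value stood above 2 FPKM. The locus named only heat shock protein-like (ZS07g0424600) stood at 2.74, 2.06 and 2.21 in darkness and at 2.13, 1.65 and 1.39 in light, with no 2-fold difference.

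Among the heat stress factors, the class A activators were the most abundant. Factor A-1 (ZS03g0821700), whose relatives in tomato and Arabidopsis start the heat response, was among the steadiest members, and stood at 24.8, 22.3 and 27.3 FPKM in darkness and at 24.7, 25.2 and 30.1 in light. Factor A-2c (ZS10g0325800) stood at 10.0, 14.6 and 25.3 FPKM in darkness and at 15.7, 7.04 and 8.68 in light. It was higher in each later dark library, and its 60-min and 24-h values were 2-fold below the 5-day library (-1.71 and -1.44) but not below the 3-day library (-0.95 and -0.69). Factor A-2e (ZS03g0738900) stood at 6.47, 14.2 and 13.3 in darkness and at 12.5, 10.8 and 7.87 in light. Factor A-4b (ZS01g0612900) stood at 7.77, 13.8 and 14.2 in darkness and at 16.3, 9.33 and 11.8 in light, highest at 30 min. The 4 class A loci summed to 49.1, 64.9 and 80.1 FPKM in darkness and 69.3, 52.4 and 58.5 in light.

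Classes B and C were lower in level and more varied. Factor B-1 (ZS09g0324000, with ZS09g0324100 merged) stood at 1.57, 9.24 and 4.37 FPKM in darkness and at 7.58, 9.57 and 11.3 in light. It was the only factor 2-fold higher at 24 h than at 5 days of darkness (1.20), but it lay close to its 3-day level (0.27). Factor B-2b (ZS08g0633100) stood at 1.23, 1.34 and 2.49 in darkness and at 1.17, 0.309 and 1.77 in light. Factor C-1a (ZS01g0495000) stood at 7.66, 2.98 and 5.11 in darkness and at 2.96, 1.21 and 1.90 in light. Factor C-1b (ZS01g0599300) stood at 0.172, 1.69 and 7.40 in darkness and at 2.02, 1.15 and 7.60 in light, so that its 24-h value matched its 5-day dark value. The locus named putative heat shock factor (ZS09g0386300) stood at 3.42, 2.40 and 13.5 in darkness and at 4.46, 1.54 and 2.59 in light. It stood out at 5 days of darkness alone, and its differences of -1.41, -2.51 and -2.02 from that library turned to 0.68, -0.42 and 0.08 against the 3-day library. Factor B-4d (ZS03g0280100) ranged from 0.700 to 1.49 FPKM. For 4 of the 10 factors the lowest value fell at 60 min and for 5 at 1 day of darkness.

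**Figure D3:**
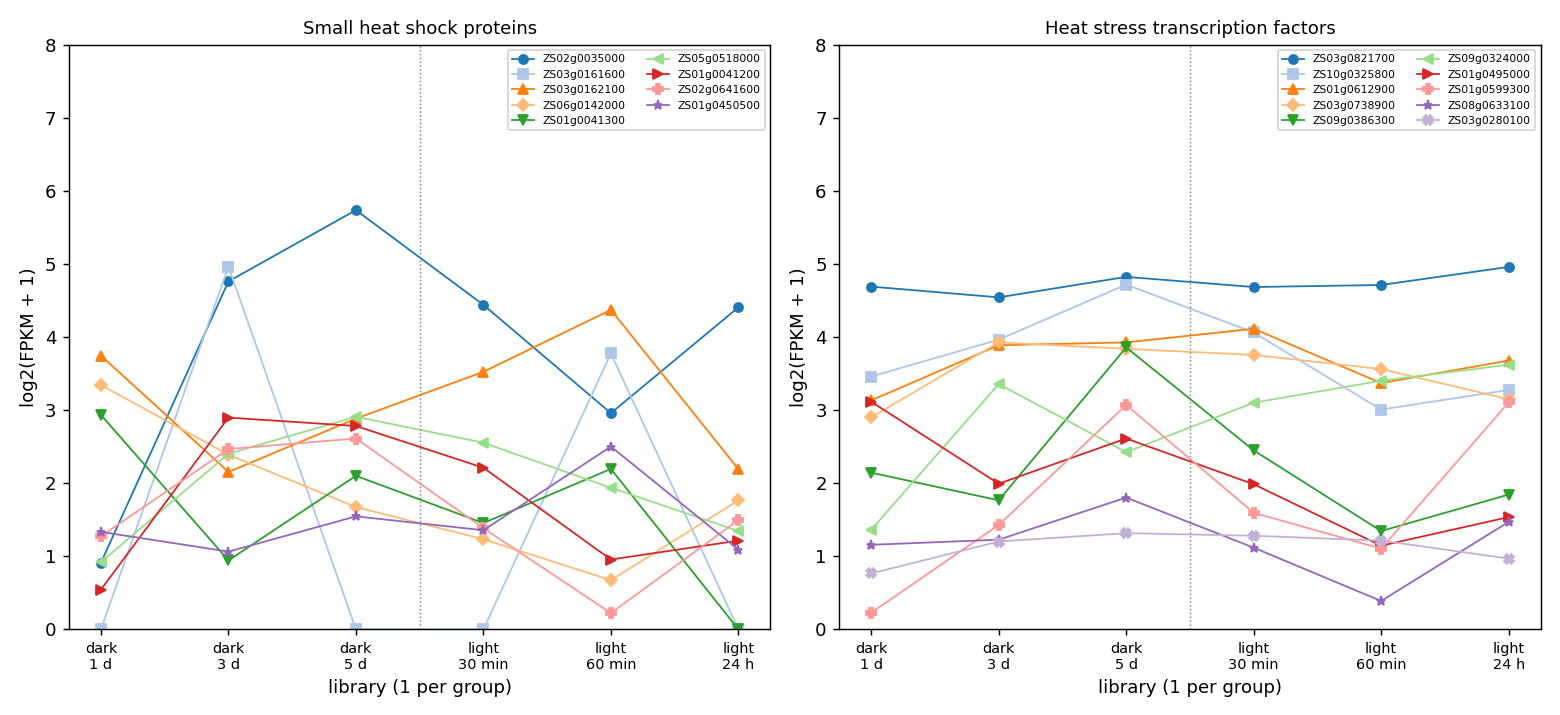
Level, as log2(FPKM + 1), of the 9 small heat shock proteins and 10 heat stress factors in the 6 libraries (1 per group; lines join values of a locus as a guide, and the dotted line parts dark from light). The 18.9 kDa protein (ZS02g0035000) reaches 52.3 FPKM at 5 days of darkness and 6.77 at 60 min, and factor A-1 (ZS03g0821700) stays between 22.3 and 30.1.

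Between 1 and 3 days of darkness, 8 members were at least 2-fold higher and 5 lower, that is 20.5% and 12.8%, against 13.5% and 14.5% of all loci. The median over members was -0.15, and -0.03 over all loci. The 8 were 5 small heat shock proteins, with ZS03g0161600 from a listed 0 among them, and factors A-2e, B-1 and C-1b. The 5 were the 17.4 kDa and the second 16.9 kDa protein, factor C-1a, the HSP70-15 locus ZS01g0080500 and ClpB1-like. The small protein median was 1.19 and the 70 kDa median -0.35, with the same signs under each scaling tried. Without the floor, which adds loci under 1 FPKM in every library, the small protein median was 0.06 and the 70 kDa median -0.33. With sums made equal without the locus that dominated the 3-day library, the split became 10 higher and 2 lower (83.3% in place of 61.5% higher). All loci moved with them, from 48.3% to 63.1% higher among those past 2-fold.

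Between 3 and 5 days, 7 members were higher and 1 lower (17.9% and 2.56%, against 14.5% and 4.79% of all loci), with a median of 0.40 against 0.27 over all loci. The shares lay near those of all loci. The 1 lower member was ZS03g0161600, at a listed 0 at 5 days. The higher members were ZS11g0636900, ZS05g0259100 and ZS03g0506200 of the 70 kDa family, HSP90-5 (ZS09g0339300), factor C-1b, the putative heat shock factor and the second 16.9 kDa protein. Scaled to the median ratio of loci, which takes the 0.27 to 0.00, the split was 4 higher and 3 lower (57.1% in place of 87.5% higher), where all loci went from 75.2% to 57.0%. The 70 kDa median turned from 0.20 to -0.19 under that scaling. Scaled to equal sums without ZS07g0251700 the split was 5 and 2 (71.4%, all loci 63.1%), and the 70 kDa median was -0.07. From 1 to 5 days, 9 members were higher and 1 lower (23.1% and 2.56%, against 23.4% and 11.4%), and 8 and 5 with the median ratio of loci (61.5% in place of 90% higher, and 56.6% in place of 67.3% for all loci). Of the 9, 4 were heat stress factors and 4 small heat shock proteins, and the lower one was the 26.2 kDa protein.

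After light, more members were lower than the share of all loci, when set against the 5-day dark library. At 30 min 1 member was higher and 11 lower (2.56% and 28.2%), against 9.49% and 11.4% of all loci. At 60 min 3 were higher and 12 lower (7.69% and 30.8%, against 14.8% and 12.8%), and at 24 h 5 were higher and 10 lower (12.8% and 25.6%, against 11.6% and 14.4%). The member medians were -0.36, -0.39 and -0.36, while those of all loci were 0.00, 0.01 and 0.00. These 3 comparisons share the 5-day dark library, the one in which 14 members had their highest value, so a high value there lowers all 3. Against the 3-day dark library the counts were 3 higher and 3 lower at 30 min (7.69% each, against 12.9% and 4.90% of all loci). They were 7 and 7 at 60 min (17.9% each, against 24.0% and 8.89%) and 4 and 3 at 24 h (10.3% and 7.69%, against 14.8% and 6.50%). The lower members at 30 min and at 24 h included ZS03g0161600, at a listed 0 in both.

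**Figure D4:**
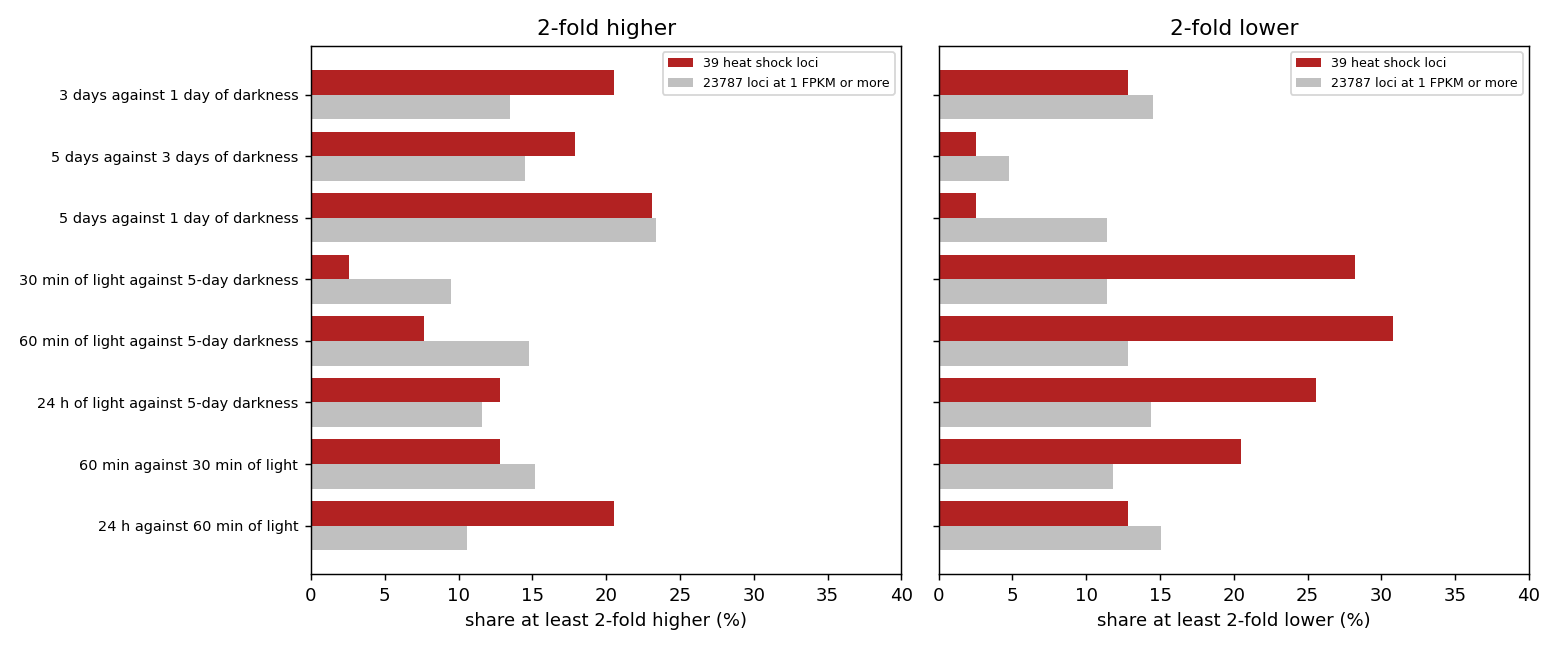
Share of the 39 loci (red) and of all 23787 loci at 1 FPKM or more in some library (grey) that were at least 2-fold higher or lower in each comparison of 2 libraries, in percent. The red bars for lower loci reach 28.2%, 30.8% and 25.6% in the 3 light comparisons with 5-day darkness, against 11.4%, 12.8% and 14.4% of all loci.

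The members lower after light were not the same at each time. At 30 min they were 4 loci of the 70 kDa family (ZS11g0636900, ZS05g0259100, ZS03g0171200 and ZS03g0506200), 2 of the 90 kDa family, ClpB2, factor C-1b, the putative heat shock factor and the 18.9 and 24.1 kDa proteins. The 1 higher member was ZS03g0170300 (1.35). At 60 min they were 5 heat stress factors (A-2c, B-2b, C-1a, C-1b and the putative factor), 4 small proteins, ClpB3 and the cognate loci ZS03g0767500 and ZS03g0171200. The higher ones were ClpB1-like (1.08), the 17.4 kDa protein (1.49) and ZS03g0161600, from a listed 0. At 24 h they were 5 small proteins, factors A-2c and C-1a, the putative factor, ClpB2 and ZS03g0506200. The 5 small proteins included ZS01g0041300, at a listed 0. The 5 higher members at 24 h were both mitochondrial 70 kDa loci, ZS03g0767500, ZS03g0171200 and factor B-1. Only the putative heat shock factor and the 18.9 and 24.1 kDa proteins were 2-fold below the 5-day library at all 3 times.

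Set against both the 5-day and the 3-day dark library, 1 member (the 24.1 kDa protein) was 2-fold lower at 30 min, 5 at 60 min and 2 at 24 h. These were 2.56%, 12.8% and 5.13% of members, against 1.74%, 4.35% and 3.00% of all loci. The 5 at 60 min were the 18.9, 24.1 and 26.2 kDa proteins, the 16.9 kDa locus ZS01g0041200 and ZS03g0767500. The 2 at 24 h were ZS01g0041200 and the 22.3 kDa protein. Higher than both were ClpB1-like and the 17.4 kDa protein at 60 min, and ZS02g0661800, ZS03g0767500 and ZS03g0171200 at 24 h. That is none at 30 min, 5.13% of members at 60 min and 7.69% at 24 h, against 6.12%, 12.2% and 7.88% of all loci. By class, the small protein median was below 0 in all 3 light libraries against either control: -0.44, -0.97 and -1.11 against 5 days and -0.32, -1.19 and -0.94 against 3 days. The factor median went from -0.38, -0.99 and -0.34 to 0.09, -0.39 and -0.07, and the 90 kDa median from -1.28, 0.00 and -0.53 to -0.02, 0.79 and 0.23. The 70 kDa median was 0.47, -0.34 and 0.32 against 5 days and 0.47, 0.30 and 0.58 against 3 days, where all loci had medians of 0.27, 0.33 and 0.23. The signs of these class medians against 5 days were the same under each scaling tried, apart from the 90 kDa median at 60 min, which stayed within 0.1 of 0. Without the floor the small protein medians against 5 days were -0.19, 0.00 and -0.22. The 1-day dark library was not used as a control for these medians. There the small proteins summed to 33.3 FPKM, against 46, 51.9 and 31.9 in light. At 3 and 5 days they summed to 81.3 and 83.6, so light sums lay clearly below only those libraries. Listed 0s counted as 0 in these sums.

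**Figure D5:**
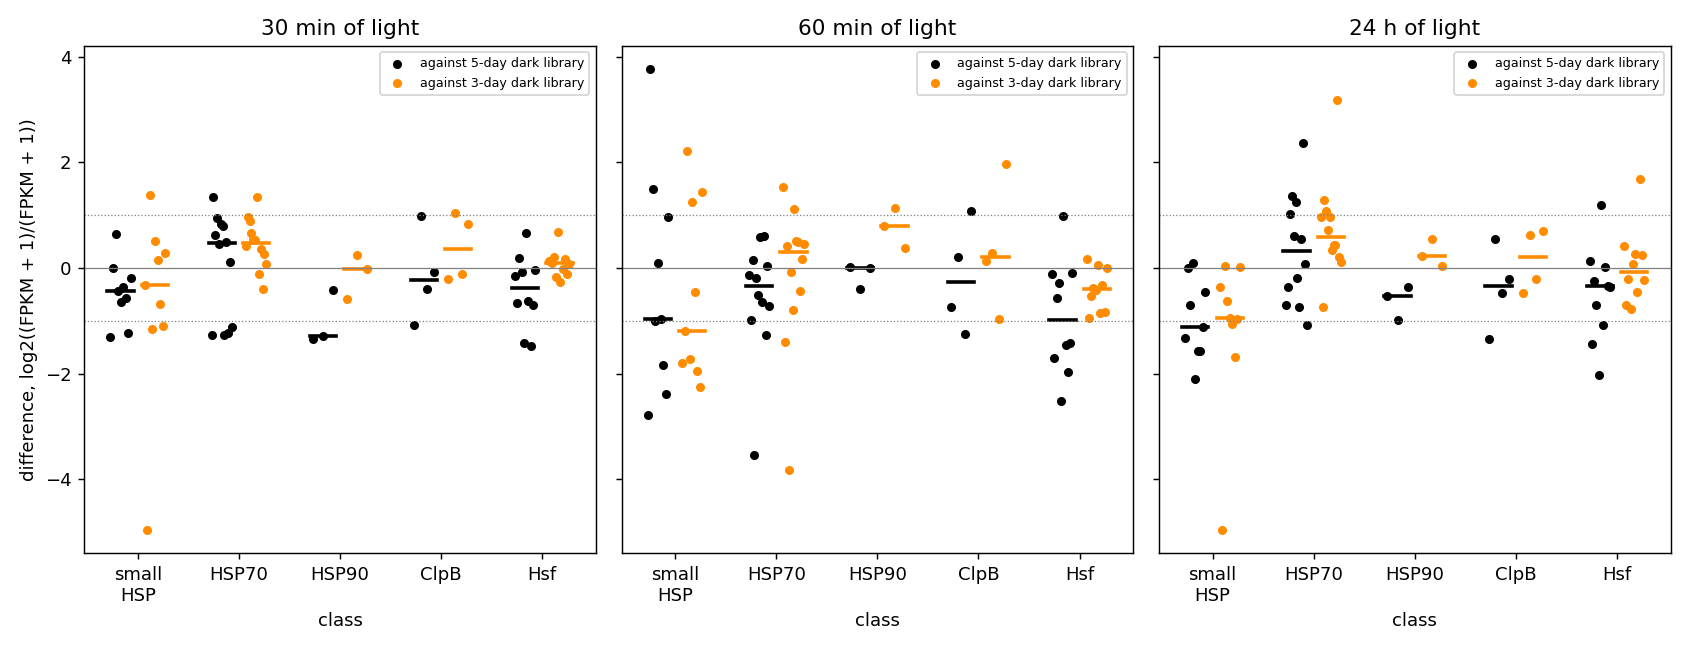
Difference of each member, as log2((FPKM + 1)/(FPKM + 1)), between a light library and the 5-day (black) or 3-day (orange) dark library, by class, with bars at the class medians and dotted lines at 2-fold. The small protein medians lie below 0 in all 3 panels with both controls, while the 90 kDa median at 30 min moves from -1.28 to -0.02.

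From 30 to 60 min of light, 5 members were higher and 8 lower (12.8% and 20.5%, against 15.2% and 11.8% of all loci). ZS03g0161600 counted as higher from a listed 0. Heat shock protein 90 (1.37) and ZS11g0636900 (1.13) were among the higher, and ZS03g0767500 (-4.49), ZS03g0170300 (-2.34), the 18.9 kDa protein (-1.48) and the mitochondrial 70 kDa locus ZS09g0354200 (-1.33) among the lower. From 60 min to 24 h, 8 were higher and 5 lower (20.5% and 12.8%, against 10.6% and 15.1%). The lower included ZS03g0161600 and ZS01g0041300, both listed at 0 at 24 h. With the 30-min library in place of the 60-min one, an alternative chosen after the data were seen, 2 were higher and 4 lower (5.13% and 10.3%, against 6.23% and 7.63%). ZS01g0041300 was again among the lower.

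Annotation terms did not enter the choice of members, but they may not be independent of the product names that did. The share of all loci with each term is not given here, so the counts only describe the members. The deposited table assigned 24 of the 39 to the response to heat, 7 to the response to hydrogen peroxide and 6 to the response to high light intensity. All 12 of the 70 kDa loci carried the heat term, but only 2 of the 10 heat stress factors did. The pathway Protein processing in endoplasmic reticulum held 21 members, among them 8 of 9 small proteins.

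Partner chaperones outside the name rule were set beside these loci from fixed name lists. DnaJ-type proteins, which hand clients to 70 kDa chaperones, numbered 23. Between 1 and 3 days of darkness 2 were higher and 3 lower, and between 3 and 5 days 2 and 0. At 30 min of light there were 0 and 4 against 5 days, at 60 min 1 and 2, and at 24 h 2 and 2. Over all loci the shares higher and lower were 13.5% and 14.5%, then 14.5% and 4.79%. For the light libraries they were 9.49% and 11.4%, 14.8% and 12.8%, and 11.6% and 14.4%. These shares also stand beside the lists that follow. Among the DnaJ-type loci, B member 7 (ZS01g0478300) stood at 0.0356, 0.281 and 0.406 FPKM in darkness and at 0.808, 0.528 and 11.1 in light. Its only value above 1 FPKM was the one at 24 h, so it passed the floor through that library alone.

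Chaperonins, the barrel-shaped folding machines of cytosol and organelles, numbered 14. From 1 to 3 days of darkness 7 were lower and none higher, against 14.5% and 13.5% of all loci. The median was -1.01, against -0.15 for the heat shock loci. At 24 h of light 5 were higher and 1 lower than at 5 days of darkness (median 0.85, all loci 11.6% and 14.4%). Against 3 days 5 were higher and none lower (0.90, all loci 14.8% and 6.50%). The mitochondrial chaperonin-60 (ZS10g0360000) stood at 124, 62.5 and 68.4 FPKM in darkness and at 120, 75.3 and 152 in light. It was highest at 24 h, as both mitochondrial 70 kDa loci were. Loci named mitochondrial chaperonin CPN60-1 parted there. ZS03g0048000 was highest at 24 h, at 35.4 FPKM. ZS12g0119600 was lowest at 24 h, at 4.3 FPKM against 12 at 5 days of darkness (-1.29). A 10 kDa chaperonin (ZS07g0546600), a lid protein of such barrels, stood at 180, 87.7 and 63.2 in darkness and at 144, 78.1 and 182 in light.

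Co-chaperones of the 70 and 90 kDa families, listed together with prefoldin subunits 1, 4 and 6, numbered 9. From 1 to 3 days 1 was higher and 4 lower (median -0.95), against 13.5% and 14.5% of all loci. The light libraries had 1 higher and 0 lower, 2 and 1, and 2 and 0 against 5 days. The higher locus from 1 to 3 days was prefoldin subunit 4, and both at 24 h were prefoldin subunits. The adaptor that joins the 2 machines, hsp70-Hsp90 organizing protein (ZS02g0524800), stood at 90.6, 43.1 and 39.9 FPKM in darkness and at 51.5, 24.1 and 63.5 in light. It was lowest at 60 min, when heat shock protein 90 was at 291 FPKM. The 4 loci of folding in the endoplasmic reticulum had 3 lower at 3 days than at 1 day (median -1.57) and none past 2-fold from 3 to 5 days. In the 3 light libraries 1, 0 and 1 were lower than at 5 days, with none higher. The lower locus was the calreticulin family locus ZS03g0748800 (-1.63 at 30 min and -1.56 at 24 h). The list medians in light were above 0, at 0.43, 0.32 and 0.68. Luminal-binding protein 3 (ZS02g0023500), the 70 kDa chaperone of that compartment, stood at 249, 73.3 and 70.7 FPKM in darkness and at 126, 104 and 132 in light.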

How the data were processed

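Per the file headers, the values deposited by the authors are FPKM, 1 column for each of 6 libraries. Per the labels' protocols, messenger RNA was bound to poly-T beads and sequenced in paired ends; the kit named marks no strand, so antisense reads cannot be told apart. The step that assigned reads to loci was not given in the sources used here, though Bowtie 0.12.2 and the mouse build mm8 stand, with no role, in the submitters' processing notes. Counts and depth are unknown, so no count test, interval or p-value is given. None of the gene names matched the reference gene table (0 matches), so product names, some taken from other species, are those deposited, and no sequence or coordinate is printed.

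A locus entered at 1 FPKM or more in some library. Differences used a pseudocount of 1 FPKM, which understates those of low loci, and a rule of 2-fold. Computation used Python 3.11.15, pandas 2.3.3 and numpy 2.4.6. Values in every library are given for the 4 most abundant loci per class, the 6 highest and 6 lowest past 2-fold in 5 comparisons, and every heat stress factor past 2-fold. The members and lists were chosen with earlier results of these data known. Alternatives changed the pseudocount, floor, scaling or control library. The root marker list matched no locus (0). The deposited p-values were not used.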

Additional observations from a re-analysis of the deposited data

Results flagged for a closer look

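In 2 cognate 70 kDa loci, light libraries lay 2-fold or more on opposite sides of the 5-day dark library. ZS03g0767500 had a difference of 1.37 at 24 h and -3.54 at 60 min. ZS03g0171200 had 2.36 at 24 h, against -1.22 at 30 min and -1.27 at 60 min. With 1 library per time the difference between times was not tested. Both comparisons share the 5-day library, but against the 3-day dark library ZS03g0767500 still stood at 1.08 and -3.83, while ZS03g0171200 stood at 3.19, -0.40 and -0.44. No group held the 4 samples that a search for outlying samples needs.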

How the results depend on the processing

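No paired analysis was possible because each group held 1 library, and no replicate could be left out. With the 3-day in place of the 5-day dark library, 3 members were higher and 3 lower at 30 min (1 and 11 against 5 days), 7 and 7 at 60 min (3 and 12) and 3 lower at 24 h (10). Called differences that turned sign under it were those at 30 min of factor C-1b ZS01g0599300 (0.17), ZS03g0506200 (0.07), ZS09g0339300 (0.24), the putative factor ZS09g0386300 (0.68) and ZS11g0636900 (0.41). At 60 min ZS03g0161600, called higher only from a listed 0, stood at -1.19 against its 3-day value, and at 24 h the sign turned for ZS03g0506200 (0.11) and ZS09g0386300 (0.08). With the 30-min library in place of the 60-min one, 2 members were higher at 24 h (8), and ZS02g0035000 turned to -0.03. Scaling by the median ratio of loci gave 4 higher and 3 lower from 3 to 5 days (7 and 1) and 5 lower from 1 to 5 days (1). Equal sums without the largest 3-day locus gave 2 lower from 1 to 3 days (5) and 2 lower from 3 to 5 days (1). A pseudocount of 0.1 gave 2 lower from 3 to 5 days, and pseudocounts of 0.1 and 0.5 each gave 2 higher at 30 min (1) and 5 at 60 min (3). A floor of 5 FPKM, which leaves fewer members, gave 3 higher from 30 to 60 min (5) and 3 lower from 60 min to 24 h (5). Beyond the smaller number of members at that floor, the cause was not tested. The number of reads behind low values is unknown.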

Other observations

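Of 8 other loci known from heat responses, 2 were higher and 1 lower from 1 to 3 days of darkness (all loci 13.5% and 14.5%). From 3 to 5 days 1 was higher (all loci 14.5%). None was higher in any light library against 5 days, where 1, 2 and 1 were lower (all loci 11.4%, 12.8% and 14.4%). Galactinol synthase 2 (ZS07g0584100), which starts the synthesis of raffinose-type sugars, stood at 0.0293, 8.03 and 12.9 FPKM in darkness and at 9.31, 6.41 and 25.9 in light. Multiprotein-bridging factor 1c (ZS06g0518400), a heat-induced co-activator in Arabidopsis, stood at 3.63, 1.13 and 2.01 in darkness and at 4.69, 0.618 and 0.646 in light. Chloroplast ascorbate peroxidase 8 (ZS02g0425000), a peroxide-removing enzyme, stood at 0.333, 0.648 and 15 in darkness and at 0.747, 3.54 and 1.46 in light. Its 2 highest libraries were those with the high leaf marker sums, 5 days of darkness and 60 min of light; the part of leaf tissue in this was not tested.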
